A study of Mus musculus with 12 samples.

Results

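Non-collagen genes of the heart's extracellular matrix, together with a small set of fibroblast genes, were followed in RNA from 12 whole mouse hearts. The 45 genes were taken from a list of symbols and looked up by symbol in the deposited table, where all 45 were found among 54178 gene entries. They were chosen by symbol, without a threshold on measured values, but with earlier results of these data known. Counts of members are therefore set beside the share of all genes as description, and the list was not tested as a set. All 45 had enough counts to be tested beside 15226 genes in all.

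The hearts formed 4 groups of 3. KO hearts labelled exercise and KO hearts labelled sedentary came from mice in which Cited4, a transcriptional co-regulator, was removed from cardiomyocytes by a cre transgene under the aMHC promoter. Flox hearts labelled exercise and Flox hearts labelled sedentary came from mice with Cited4 flox/flox alleles. Mice labelled exercise had voluntary wheel running for 8 weeks and the others were housed without it. By the cross described, all mice carried floxed alleles, and no group carried cre with intact Cited4, so the KO label holds the loss of the gene and the transgene together. The bracketed code in each title carries the letter E beside the word sedentary and S beside the word exercise, so treatment is given throughout as labelled. Should the codes hold in place of the words, the exercise differences and the interaction would change sign, and the comparisons of KO with Flox under each label would exchange names. The labels do not say which animal gave which sample. The p-values here set differences between groups against the spread between samples within groups, estimated over all 12 samples. Libraries held 17465432 to 20467300 counts. Cited4 had 0 to 3 counts in KO hearts labelled exercise, 0 to 5 in KO hearts labelled sedentary, 261 to 431 in Flox hearts labelled exercise and 192 to 295 in Flox hearts labelled sedentary.

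The extracellular matrix of the heart is made largely by resident fibroblasts, and it carries force between myocytes. Collagen fibrils give it tensile strength, and the proteins described here organise and complement them. Small leucine-rich proteoglycans set the spacing and width of fibrils, fibulins and fibrillins build elastic fibres, and lysyl oxidases crosslink collagen and elastin. Matricellular proteins such as periostin and thrombospondins signal to cells more than they bear load, and many of them are known to be expressed more in injured or pressure-loaded hearts. Cardiac fibroblasts are commonly recognised by Tcf21 and Pdgfra. Latent TGF-beta binding proteins hold the growth factor TGF-beta in the matrix.

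Among hearts labelled sedentary, 40 of the 45 genes had a higher fitted level in KO than in Flox, where 50.0% of all genes tested did, and the median log2 fold change was 0.61, against 0.00 over all genes tested. Under the exercise label the same comparison gave a median of -0.06, with 16 of 45 higher in KO, where 48.8% of all genes were. Only Serpinf1, which encodes the secreted serpin PEDF, passed the threshold of 0.05 on the adjusted p, and it was 1.87-fold higher in KO than in Flox hearts labelled sedentary. Markers of atrial muscle were also higher in KO hearts labelled sedentary, and their values stand beside the results below.

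The sequences upstream of an annotated start of 4 genes are shown because these had the smallest p for KO over Flox among hearts labelled sedentary among members with a single RefSeq promoter entry. RefSeq promoter entries (GRCm38.p6), which cover the 250 bases before the annotated start, matched 32 of the 45 genes by symbol. Bases inside an exon of the gene itself in the GENCODE vM21 annotation were cut from the 3′ end. Each sequence is given 5′ to 3′ on the strand of the gene, and capitals mark matches to the motifs searched. Serpinf1 is read from chr11:75422702-75422873 on the minus strand, Pcolce from chr5:137611488-137611654 on the minus strand, Ltbp2 from chr12:84876533-84876741 on the minus strand and Bgn from chrX:73483351-73483600 on the plus strand. The Pcolce sequence precedes an internal annotated start and lies inside the span of the gene, not at its 5′ end.
Serpinf1: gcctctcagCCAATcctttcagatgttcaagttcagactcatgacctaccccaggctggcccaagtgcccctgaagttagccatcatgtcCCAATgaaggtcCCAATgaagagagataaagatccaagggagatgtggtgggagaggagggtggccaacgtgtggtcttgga
Pcolce: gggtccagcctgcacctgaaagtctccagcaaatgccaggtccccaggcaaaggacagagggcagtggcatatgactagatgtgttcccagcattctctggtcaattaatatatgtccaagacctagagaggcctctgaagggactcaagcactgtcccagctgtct
Ltbp2: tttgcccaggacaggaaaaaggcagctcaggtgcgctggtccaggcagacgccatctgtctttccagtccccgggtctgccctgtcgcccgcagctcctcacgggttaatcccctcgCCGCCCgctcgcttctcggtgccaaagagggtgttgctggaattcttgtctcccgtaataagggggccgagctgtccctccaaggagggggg
Bgn: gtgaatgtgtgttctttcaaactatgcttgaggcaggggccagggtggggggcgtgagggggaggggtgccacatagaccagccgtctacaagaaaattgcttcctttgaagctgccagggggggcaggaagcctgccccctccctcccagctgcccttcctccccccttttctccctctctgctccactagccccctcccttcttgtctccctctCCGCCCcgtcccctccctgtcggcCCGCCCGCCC

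The capitals in Serpinf1 are 3 copies of the CCAAT box, the core letters CCAAT, which begin 241, 160 and 148 bases before the start. Ltbp2 holds 1 GC box, the letters GGGCGG read here on the other strand as CCGCCC, 133 bases before its start. Bgn holds 3 such GC boxes at 34, 10 and 6 bases, and the last pair overlap. The printed Pcolce sequence holds no searched motif, while the uncut Pcolce entry holds a GC box in the bases cut away. The uncut Serpinf1 entry likewise holds a match to CAGACA, on either strand, that its printed sequence lacks. Both strands were searched over the uncut 250 bases of 38 promoter entries of members and 32851 entries in all. TATAAA, the TATA box, was in 15.8% of the members' entries and 12.4% of all entries, GGGCGG in 47.4% and 32.7%, and CCAAT in 26.3% and 33.8%. CAGACA, a Smad binding element, was in 28.9% of the members' entries and 17.1% of all entries, and CACGTG, a palindromic E box, in 5.26% and 6.02%. These are descriptions of letters in a fixed window and were not tested.

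Levels between genes are given per length, as CPM (counts scaled to a common library total after TMM) per kilobase of the gene's merged exons, averaged over the 12 libraries. The highest were Sparcl1 at 105 CPM per kb and Sparc at 103, related secreted calcium-binding glycoproteins. Serpinh1, the collagen chaperone HSP47, had 93.4 CPM per kb, Dcn, the proteoglycan decorin, 86.9, and Dpt, the adhesive protein dermatopontin, 64.4. The lowest were Ltbp2 at 0.621 and Tnc, the injury-associated glycoprotein tenascin C, at 0.396 CPM per kb. Each of 4 groups by role held genes at both ends of the scale: matricellular proteins ran from 0.396 to 104.7 CPM per kb, small leucine-rich proteoglycans from 1.01 to 86.9, collagen processing genes from 1.36 to 93.4 and elastic fibre genes from 0.621 to 22.1. Basement membrane genes ran from 5.10 to 40.0 CPM per kb. The fibroblast gene Tcf21 had 4.41 and Serpinf1 11.1 CPM per kb.

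**Figure D1:**
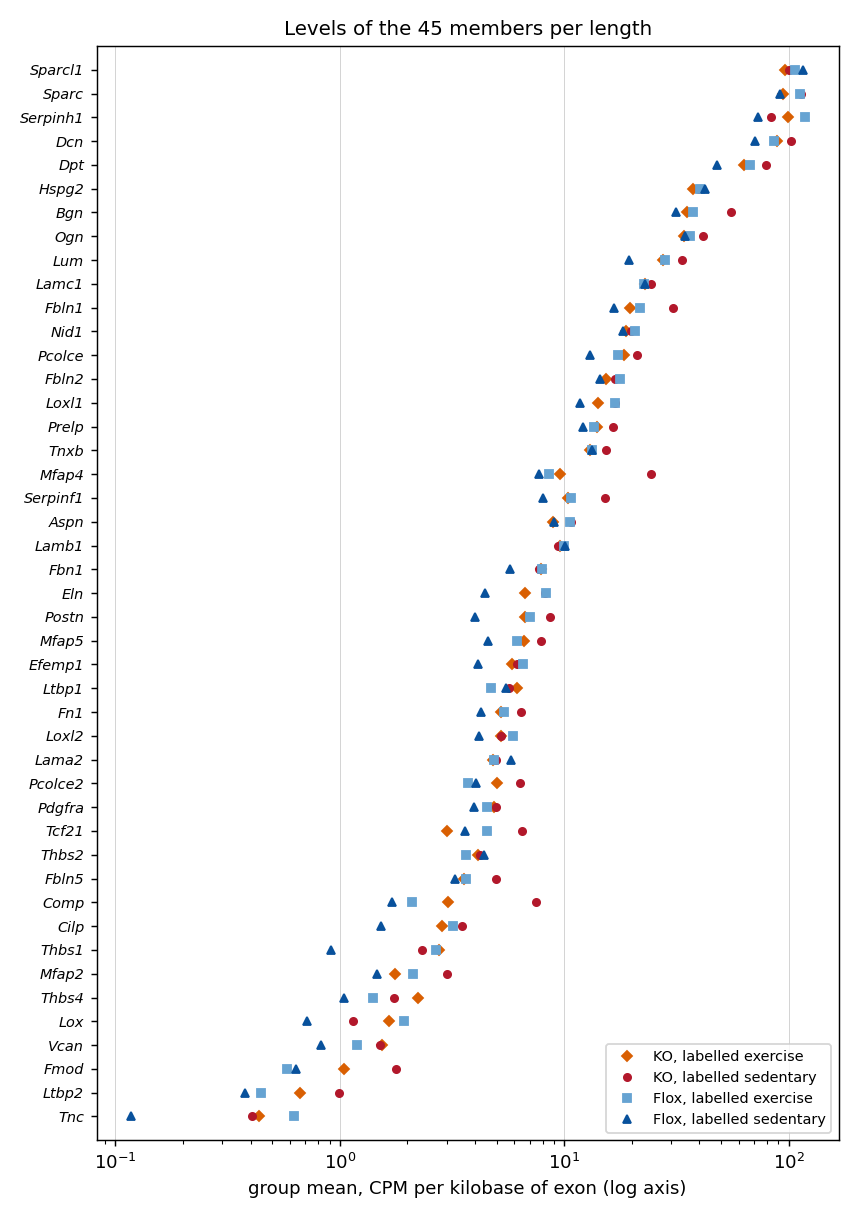
Mean level of each of the 45 genes in each of the 4 groups, in CPM per kilobase of merged exons on a log axis. Genes are ordered by their mean over the 12 libraries. By that mean, Sparcl1 at 104.7 and Sparc at 103.1 CPM per kb are the highest and Tnc at 0.396 the lowest.

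In KO hearts labelled sedentary compared with Flox hearts labelled sedentary, 1 of the 45 genes passed the adjusted threshold (Serpinf1), where 0.125% of all genes tested were called in either direction and 0.105% were called higher. At an unadjusted p under 0.05, 24 of 45 were higher in KO, against a background of 8.1%, and none was lower, against 5.41%. For 27 genes every KO library lay above every Flox library, against a background of 10.4%, and for 1 gene, Lama2, every KO library lay below, against 7.93%. The genes closest to the threshold were Fbln5 (adjusted p = 0.0566), Pcolce (0.0809), Ltbp2 (0.0994), Mfap5 (0.0994) and Bgn (0.104) in edgeR's quasi-likelihood test with Benjamini-Hochberg adjustment. DESeq2 called 13 of the 45, against 1.35% of the genes it tested. The 13 were Serpinf1, Fbln5, Pcolce, Bgn, Ltbp2, Mfap5, Postn, Thbs1, Fbln1, Cilp, Pcolce2, Dpt and Mfap4. DESeq2 gave a p for 27509 genes, among them genes at low counts that the filter before edgeR left out. Its shares, here and below, are therefore not on the same base as those of the 15226 genes.

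In KO hearts labelled exercise compared with Flox hearts labelled exercise, no member passed the adjusted threshold, against 0.00657% of all genes. At an unadjusted p under 0.05, Pcolce2 and Ltbp1 were higher (2 of 45, background 3.87%) and Tcf21 was lower (1 of 45, background 4.07%). The libraries of the groups did not overlap for Ltbp1 and Ltbp2, higher in KO (background 7.61%), and for Sparc, lower in KO (background 7.23%). These counts lie close to the background. DESeq2 also called no member in this comparison.

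In KO hearts labelled exercise compared with KO hearts labelled sedentary, 36 of the 45 genes had a lower and 9 a higher fitted level, where 49.3% of all genes were higher, with a median log2 fold change of -0.24 and no gene past the adjusted threshold (background 0.0197%). At an unadjusted p under 0.05, 8 were lower (background 6.27%) and none higher (background 4.35%), and for 7 the libraries did not overlap in the lower direction (background 7.31%) and for none in the higher (background 5.82%). DESeq2 called Tcf21 and Fbln5, both lower in the exercise label, against 0.4% of the genes it tested. In Flox hearts labelled exercise compared with Flox hearts labelled sedentary, 35 of the 45 had a higher fitted level, where 51.4% of all genes did, with a median of 0.30 and no gene past the adjusted threshold (background 0.0%). At an unadjusted p under 0.05, 13 were higher (background 3.86%) and 1 lower (background 3.56%), and 16 did not overlap in the higher direction (background 7.5%) and 1, Lama2, in the lower (background 6.57%). DESeq2 called Thbs1 and Tnc, both higher in the exercise label, against 0.16% of the genes it tested. The comparison of KO with Flox under the sedentary label and that of exercise with sedentary labels in Flox share the 3 Flox hearts labelled sedentary, and the comparison within KO shares the 3 KO hearts labelled sedentary, so their values are given side by side only.

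Averaged over treatment labels, 39 of the 45 genes were higher in KO than in Flox, where 50.4% of all genes were, with a median log2 fold change of 0.27. At an unadjusted p under 0.05, 14 were higher (background 5.98%) and none lower (background 5.64%). The 14 became 6 with mean atrial marker level as covariate (background 2.79%), 9 without Flox sedentary replicate 1 or KO exercise replicate 3 (background 4.79% and 4.37%) and 24 without KO exercise replicate 2 (background 7.51%). None passed the adjusted threshold (background 0.0525%, and 0.0328% in the higher direction), and the smallest adjusted p was that of Pcolce2, 0.136. Averaged over genotypes, exercise over sedentary labels gave a median of 0.02, with 24 of 45 higher where 51.1% of all genes were, 4 genes higher and 1 lower at an unadjusted p under 0.05 (background 3.58% and 4.87%), and none past the adjusted threshold (background 0.0263%).

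**Figure D2:**
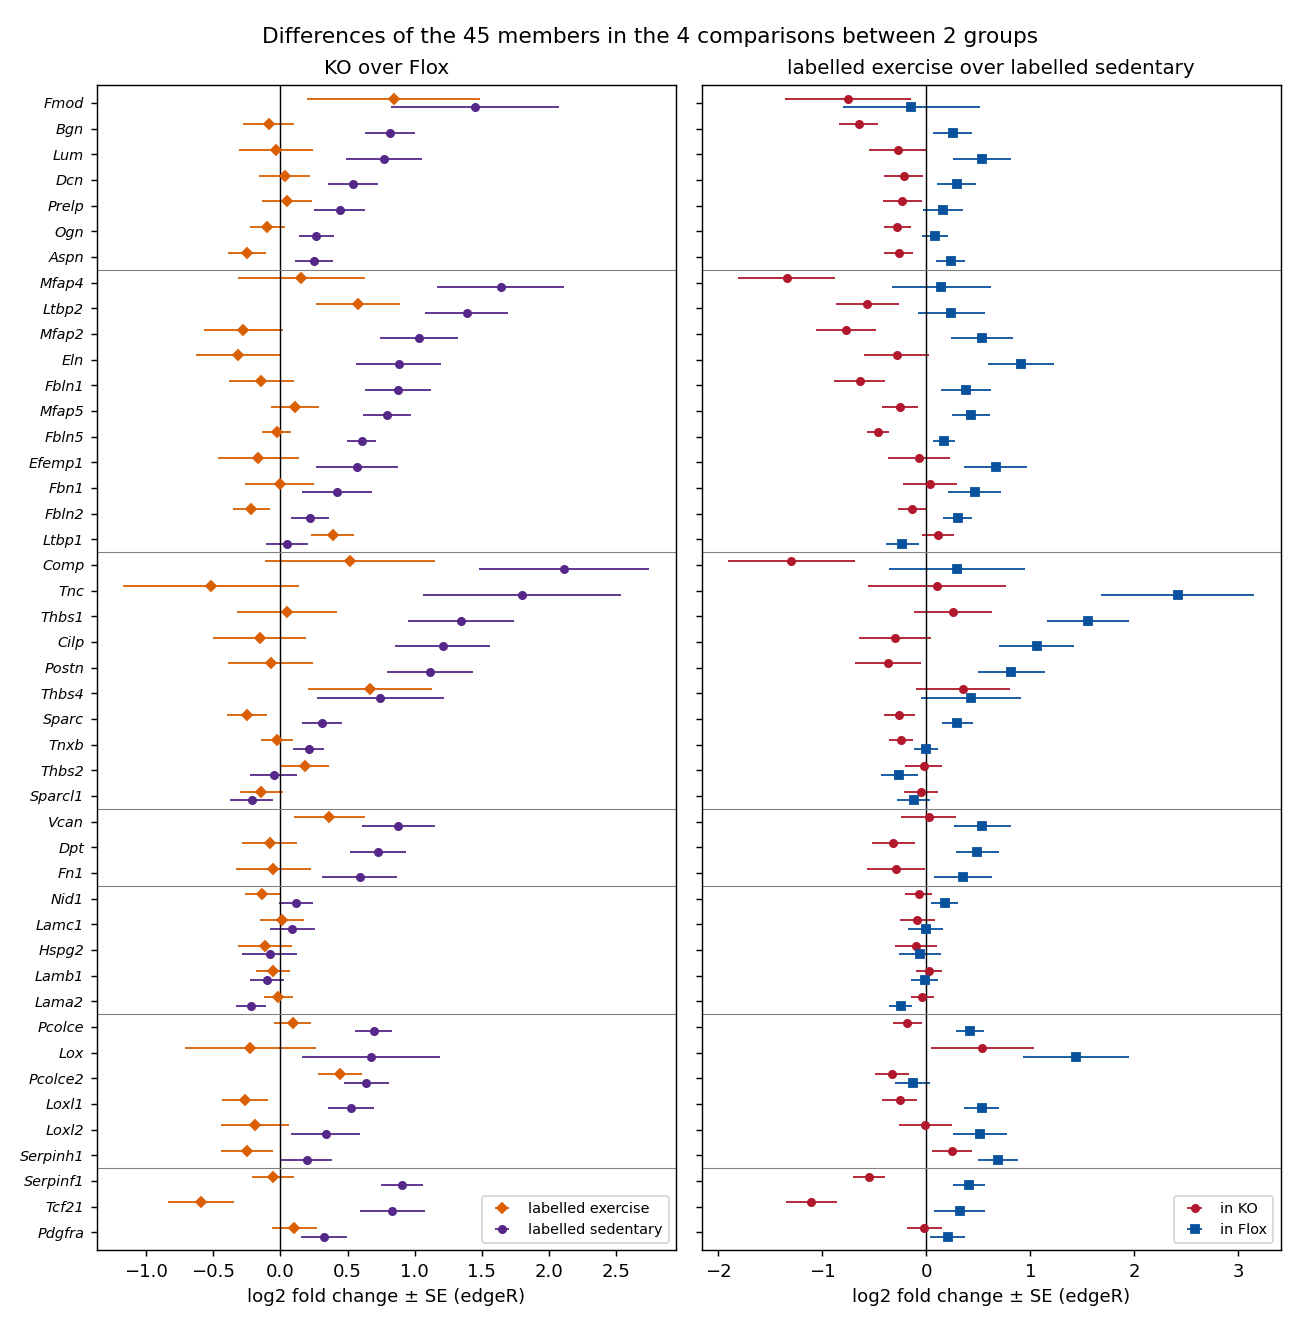
Log2 fold change of each of the 45 genes, grouped by role, for KO over Flox (left) and for labelled exercise over labelled sedentary (right). Standard errors come from the fit, in which the 4 groups share an estimate of the spread over all 12 libraries. For KO over Flox, the points of the sedentary label have a median of 0.61 and those of the exercise label a median of -0.06.

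Group means placed KO hearts labelled sedentary highest for 26 of the 45 genes and Flox hearts labelled sedentary lowest for 32. Flox hearts labelled exercise were highest for 10 and KO hearts labelled exercise for 4. For 3 genes, Bgn, Comp and Fbln5, all KO libraries labelled sedentary lay above all 9 other libraries, a pattern shown by 1.67% of all genes tested. In single libraries, KO labelled sedentary replicate 3 was the highest of all 12 for 13 genes and replicate 1 for 10, while Flox labelled sedentary replicate 2 was the lowest for 12 and KO labelled exercise replicate 2 for 10.

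**Figure D3:**
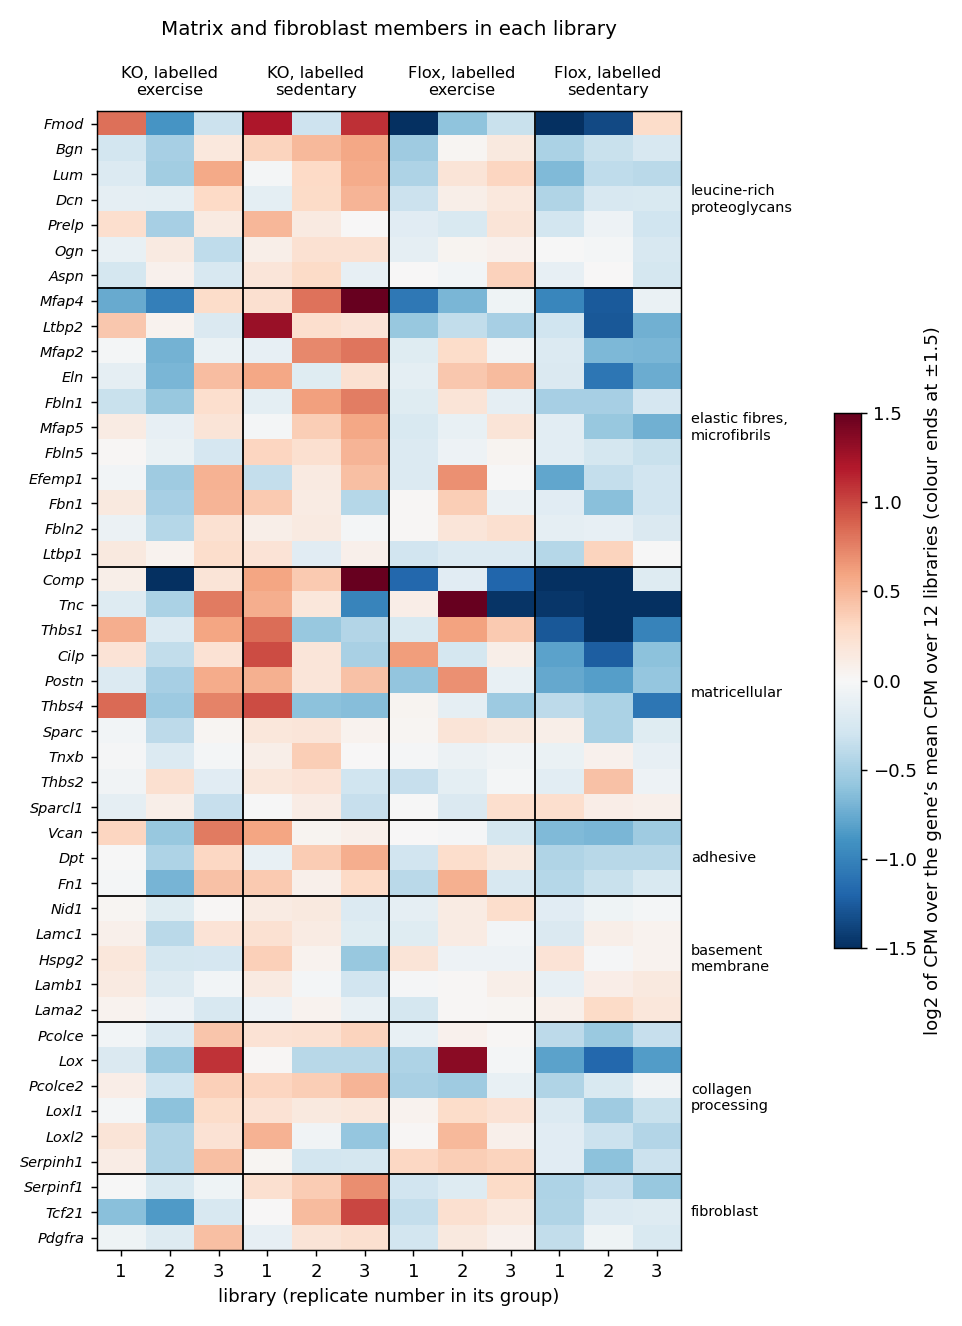
Level of each of the 45 genes in each of the 12 libraries, as the log2 of its CPM over the gene's mean CPM in all libraries (colour ends at ±1.5), with groups in columns and roles in rows. Most rows are above their mean in KO labelled sedentary and below it in Flox labelled sedentary, and KO labelled exercise replicate 2 is low beside the other libraries of its group.

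The small leucine-rich proteoglycans, which bind collagen fibrils, were all higher in KO than in Flox hearts labelled sedentary by fitted level (7 of 7, median log2 fold change 0.54). Of these, 5 had an unadjusted p under 0.05 (background 8.1%). Under the exercise label their median was -0.03. Bgn encodes biglycan, which also binds TGF-beta family ligands, and lies at positions 73483602 to 73495933 of chromosome X (GRCm38). Bgn had 200.3, 172 and 271 CPM in KO hearts labelled exercise, 306, 339 and 364 in KO hearts labelled sedentary, 168, 247 and 269 in Flox hearts labelled exercise, and 175, 192 and 206 in Flox hearts labelled sedentary. Its libraries from KO hearts labelled sedentary lay above all others, and the other groups overlapped one another. Bgn had a log2 fold change of 0.81 ± 0.19 (SE) for KO over Flox among hearts labelled sedentary (adjusted p = 0.104) and -0.65 ± 0.19 for exercise over sedentary labels in KO (adjusted p = 0.307).

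Decorin, which regulates fibril width and is the most abundant of these proteoglycans per length, had 462, 458 and 625 CPM in KO hearts labelled exercise, 457, 619 and 721 in KO hearts labelled sedentary, 406, 539 and 567 in Flox hearts labelled exercise, and 371, 431 and 435 in Flox hearts labelled sedentary. KO hearts labelled sedentary lay above Flox hearts labelled sedentary with a narrow gap, at 457 against 435 CPM for the nearest pair, and overlapped the other groups. The log2 fold change was 0.54 ± 0.19 (adjusted p = 0.243). Of the other members, Lum, the fibril proteoglycan lumican, had a mean of 81.6 ± 16.5 CPM in KO and 47.8 ± 5.05 CPM in Flox hearts labelled sedentary (SD, n = 3 each). Fmod, fibromodulin, had the largest log2 fold change of the group, 1.45 ± 0.63, at levels of 2.69 to 7.72 CPM in KO and 1.00 to 4.04 CPM in Flox hearts labelled sedentary, which overlap. Prelp, which anchors matrix to basement membranes, had a log2 fold change of 0.44 ± 0.19, Ogn (osteoglycin) 0.27 ± 0.13 and Aspn (asporin) 0.25 ± 0.14. Exons of Aspn overlap those of Cenpp on the other strand, and those of Prelp overlap an antisense gene, so reads of each pair could not be told apart if the counting ignored strand. The same limit holds for Eln, Fbn1, Fn1, Lama2, Lox, Loxl2, Ltbp2, Nid1, Pdgfra, Thbs1, Tnc and Tnxb, whose exons overlap genes on the other strand.

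Genes of elastic fibres and microfibrils, the extensible part of the matrix, were higher in KO than in Flox hearts labelled sedentary in 11 of 11 cases by fitted level (median 0.79). Of these, 7 had an unadjusted p under 0.05 (background 8.1%) and 8 were without overlap (background 10.4%). Within KO, 4 of the 11 (Fbln5, Mfap4, Mfap2 and Fbln1) had an unadjusted p under 0.05 in the lower direction for the exercise label (background 6.27%). Within Flox, 3 (Eln, Mfap5 and Fbln2) had one in the higher direction (background 3.86%). Fbln5 encodes fibulin 5, needed to assemble elastic fibres, and lies at positions 101746565 to 101819055 of chromosome 12. Fbln5 had 27.0, 24.9 and 22.4 CPM in KO hearts labelled exercise, 33.3, 31.4 and 37.9 in KO hearts labelled sedentary, 23.2, 25.3 and 27.4 in Flox hearts labelled exercise, and 23.9, 22.3 and 21.2 in Flox hearts labelled sedentary. All KO libraries labelled sedentary lay above the other 9, and the lowest of them, 31.4 CPM, stood clear of the next library, 27.4 CPM in a Flox heart labelled exercise. Its log2 fold change was 0.61 ± 0.11 for KO over Flox among hearts labelled sedentary (adjusted p = 0.0566) and -0.46 ± 0.11 for exercise over sedentary labels in KO (adjusted p = 0.199).

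Ltbp2, a fibrillin-binding relative of the latent TGF-beta binding proteins, had 6.75, 5.27 and 4.37 CPM in KO hearts labelled exercise, 12.4, 6.04 and 5.84 in KO hearts labelled sedentary, 3.42, 3.94 and 3.60 in Flox hearts labelled exercise, and 4.13, 2.10 and 3.08 in Flox hearts labelled sedentary. KO replicate 1 labelled sedentary was well above the other libraries, and KO lay above Flox under each label without overlap. Its log2 fold change was 1.39 ± 0.31 under the sedentary label (adjusted p = 0.0994) and 0.58 ± 0.31 under the exercise label (adjusted p = 0.675). Ltbp1, which holds latent TGF-beta in the matrix, had 65.3, 61.3 and 70.5 CPM in KO and 48.2, 51.2 and 51.2 CPM in Flox hearts labelled exercise, without overlap, and a log2 fold change of 0.39 ± 0.16 there but 0.05 ± 0.16 under the sedentary label.

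Fbln1, encoding fibulin 1 of elastic fibres and basement membranes, had 76.9, 65.0 and 115 CPM in KO hearts labelled exercise, 87.2, 148 and 165 in KO hearts labelled sedentary, 85.2, 111 and 88.0 in Flox hearts labelled exercise, and 68.3, 68.4 and 81.3 in Flox hearts labelled sedentary. KO hearts labelled sedentary lay above Flox hearts labelled sedentary and spread widely, with replicates 2 and 3 above all other libraries. Fbln2, encoding fibulin 2, had 96.4, 76.4 and 119.7 CPM in KO hearts labelled exercise, 108, 112 and 100.1 CPM in KO hearts labelled sedentary, 104, 116 and 121 CPM in Flox hearts labelled exercise and 93.2, 94.3 and 88.1 CPM in Flox hearts labelled sedentary. The Flox hearts labelled sedentary lay below all KO hearts labelled sedentary and all Flox hearts labelled exercise, with log2 fold changes of 0.22 ± 0.14 for KO over Flox among hearts labelled sedentary and 0.30 ± 0.14 for exercise over sedentary labels in Flox.

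Mfap4, a microfibril-associated glycoprotein that binds elastin and collagen, had the largest log2 fold change of the elastic fibre genes. It had 14.3, 11.8 and 29.1 CPM in KO hearts labelled exercise, 28.5, 42.5 and 68.8 in KO hearts labelled sedentary, 11.5, 15.0 and 23.1 in Flox hearts labelled exercise, and 12.2, 10.1 and 22.4 in Flox hearts labelled sedentary. KO hearts labelled sedentary lay above Flox hearts labelled sedentary, though the lowest of them, 28.5 CPM, fell below the highest KO heart labelled exercise, 29.1 CPM. The log2 fold change of 1.64 ± 0.47 had an adjusted p of 0.194. Its exons overlap those of Mapk7 on the other strand. Mfap5 and Mfap2, glycoproteins of the fibrillin microfibril, had log2 fold changes of 0.79 ± 0.18 and 1.03 ± 0.29, and Eln, elastin itself, 0.88 ± 0.32. Elastin in Flox was 67.4 ± 14.7 CPM in hearts labelled exercise and 36.0 ± 11.1 CPM in hearts labelled sedentary. Fbn1, fibrillin 1, had 0.42 ± 0.26 and Efemp1, fibulin 3, 0.57 ± 0.31 for KO over Flox among hearts labelled sedentary.

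Matricellular genes had the widest range of log2 fold changes for KO over Flox among hearts labelled sedentary, -0.21 to 2.11 with a median of 0.93. In that comparison 8 of 10 were higher by fitted level, with 5 at an unadjusted p under 0.05 (background 8.1%). Within Flox, 4 of the 10 (Thbs1, Tnc, Cilp and Postn) had an unadjusted p under 0.05 in the higher direction for the exercise label (background 3.86%). Within KO none had one in either direction (background 4.35% higher and 6.27% lower). Thbs1 encodes thrombospondin 1, an activator of latent TGF-beta. Thbs1 had 19.3, 11.4 and 19.9 CPM in KO hearts labelled exercise, 23.7, 8.91 and 9.77 in KO hearts labelled sedentary, 11.3, 20.1 and 17.4 in Flox hearts labelled exercise, and 5.49, 4.52 and 6.61 in Flox hearts labelled sedentary. Flox hearts labelled sedentary lay below all other libraries, and replicate 1 of KO hearts labelled sedentary was well above the other libraries of its group. On the log2 scale the fold change was 1.35 ± 0.40 for KO over Flox among hearts labelled sedentary (adjusted p = 0.193) and 1.55 ± 0.40 for exercise over sedentary labels in Flox (adjusted p = 0.487). Leaving out that replicate brought the first of these to 0.74.

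Postn, periostin, which is produced by activated fibroblasts, had 49.7, 40.4 and 84.1 CPM in KO hearts labelled exercise, 82.6, 65.0 and 77.7 in KO hearts labelled sedentary, 38.0, 92.0 and 53.1 in Flox hearts labelled exercise, and 33.5, 32.3 and 38.3 in Flox hearts labelled sedentary. Flox hearts labelled sedentary lay below all KO libraries, and Flox replicate 1 labelled exercise, at 38.0 CPM, fell within their range. Postn had a log2 fold change of 1.11 ± 0.32 under the sedentary label (adjusted p = 0.187). It was -0.07 ± 0.32 under the exercise label.

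Sparc, a collagen-binding protein also called osteonectin, and its relative Sparcl1 had the highest levels per length but small differences. Sparc had 381, 299 and 397 CPM in KO hearts labelled exercise, 441, 442 and 407 in KO hearts labelled sedentary, 399, 448 and 434 in Flox hearts labelled exercise, and 415, 281 and 344 in Flox hearts labelled sedentary. KO hearts labelled exercise lay below the Flox hearts labelled exercise and below the KO hearts labelled sedentary without overlap, and the Flox hearts labelled sedentary spread from 281 to 415 CPM. Sparcl1 had 280.3, 328 and 242 CPM in KO hearts labelled exercise, 305, 333 and 242 CPM in KO hearts labelled sedentary, 306, 264 and 368 CPM in Flox hearts labelled exercise and 367, 329.6 and 325 CPM in Flox hearts labelled sedentary. All 4 groups overlapped, and its log2 fold change of -0.21 ± 0.16 under the sedentary label was opposite in sign to the median of the matricellular genes.

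Comp, a thrombospondin-family protein of cartilage and tendon, had 11.2, 3.56 and 12.2 CPM in KO hearts labelled exercise, 16.0, 14.0 and 36.4 in KO hearts labelled sedentary, 4.68, 9.41 and 4.65 in Flox hearts labelled exercise, and 2.60, 3.36 and 9.24 in Flox hearts labelled sedentary. KO replicate 3 labelled sedentary was the highest library, and all 3 libraries of its group lay above the others. The log2 fold change of Comp was 2.11 ± 0.64, with an adjusted p of 0.211. Tnc, at low levels, had a mean of 4.84 ± 4.68 CPM in Flox hearts labelled exercise and 0.908 ± 0.235 CPM in Flox hearts labelled sedentary (SD, n = 3 each), with replicate 2 of the exercise label at 10.1 CPM. Cilp, an intermediate layer protein made by cardiac fibroblasts, had a log2 fold change of 1.21 ± 0.36 for KO over Flox among hearts labelled sedentary. The remaining 3 matricellular genes, Thbs4 at 0.74 ± 0.47, Tnxb at 0.21 ± 0.12 and Thbs2 at -0.05 ± 0.18, had unadjusted p above 0.05.

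**Figure D4:**
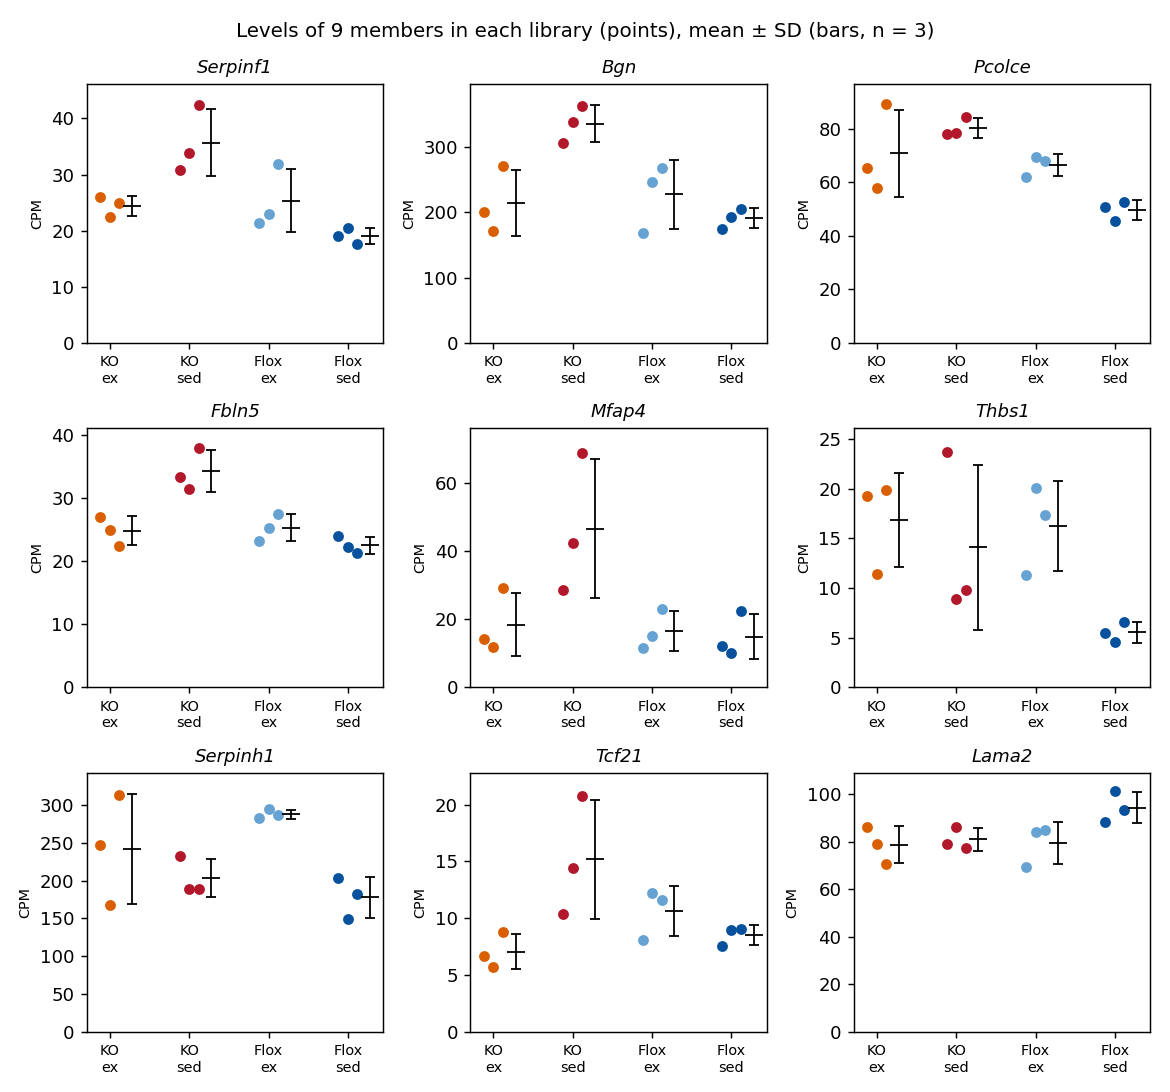
CPM of 9 genes in each library, with points for libraries and lines for the group mean ± SD (n = 3), groups in the order KO exercise, KO sedentary, Flox exercise and Flox sedentary by label. Serpinf1, Bgn and Fbln5 are highest in KO labelled sedentary, Thbs1 is lowest in Flox labelled sedentary, and Lama2 is highest in Flox labelled sedentary.

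Adhesive genes comprise Dpt, Fn1 (fibronectin) and Vcan, the hyaluronan-binding proteoglycan versican. All 3 were higher in KO than in Flox hearts labelled sedentary by fitted level (median 0.73), without overlap (background 10.4%). Of these, 2 had an unadjusted p under 0.05 (background 8.1%). Dpt, which helps collagen fibrils assemble, had 111, 80.2 and 137 CPM in KO hearts labelled exercise, 102, 144 and 162 in KO hearts labelled sedentary, 90.7, 133 and 123 in Flox hearts labelled exercise, and 81.4, 82.9 and 83.0 in Flox hearts labelled sedentary. The Flox hearts labelled sedentary lay within 81.4 to 83.0 CPM, and a KO heart labelled exercise, at 80.2 CPM, was lower still. Vcan had 22.8, 12.3 and 31.5 CPM in KO hearts labelled exercise, 27.5, 18.8 and 19.2 in KO hearts labelled sedentary, 18.4, 18.1 and 15.2 in Flox hearts labelled exercise, and 11.6, 11.3 and 12.7 in Flox hearts labelled sedentary. The Flox hearts labelled sedentary lay below the other groups apart from KO replicate 2 labelled exercise, at 12.3 CPM. Log2 fold changes for KO over Flox among hearts labelled sedentary were 0.73 ± 0.21 for Dpt (adjusted p = 0.172), 0.88 ± 0.27 for Vcan (adjusted p = 0.200) and 0.59 ± 0.28 for Fn1 (adjusted p = 0.394).

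Genes of collagen processing and crosslinking were higher in KO than in Flox hearts labelled sedentary in 6 of 6 cases by fitted level (median 0.58). Of these, 3 had an unadjusted p under 0.05 (background 8.1%). In Flox, 4 of the 6 (Serpinh1, Loxl1, Pcolce and Lox) had an unadjusted p under 0.05 in the higher direction for the exercise label (background 3.86%). The group median there was 0.52. Pcolce encodes the enhancer of the proteinase that cuts the C-terminal propeptide from fibrillar procollagens, and lies at positions 137605103 to 137613784 of chromosome 5. Pcolce had 65.2, 58.0 and 89.3 CPM in KO hearts labelled exercise, 78.0, 78.6 and 84.6 in KO hearts labelled sedentary, 62.0, 69.7 and 67.9 in Flox hearts labelled exercise, and 50.9, 45.6 and 52.5 in Flox hearts labelled sedentary. The Flox hearts labelled sedentary lay below all 9 other libraries. This gave a log2 fold change of 0.69 ± 0.14 for KO over Flox among hearts labelled sedentary (adjusted p = 0.0809) and 0.42 ± 0.14 for exercise over sedentary labels in Flox (adjusted p = 0.546). Exons of Pcolce overlap those of Fbxo24 on the same strand, which leaves its counts uncertain to that extent.

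Pcolce2, a second enhancer of the same proteinase, had 23.7, 18.0 and 28.3 CPM in KO hearts labelled exercise, 27.5, 28.6 and 31.5 in KO hearts labelled sedentary, 15.7, 15.2 and 20.4 in Flox hearts labelled exercise, and 16.2, 18.8 and 21.2 in Flox hearts labelled sedentary. KO lay above Flox under the sedentary label without overlap, and under the exercise label KO replicate 2, at 18.0 CPM, fell within the range of the Flox libraries. Its log2 fold changes were 0.64 ± 0.16 and 0.44 ± 0.17 under the sedentary and exercise labels. Serpinh1, the chaperone that folds procollagen in the endoplasmic reticulum, had 247, 167 and 313 CPM in KO hearts labelled exercise, 233, 189 and 189.6 in KO hearts labelled sedentary, 283, 295 and 287 in Flox hearts labelled exercise, and 203, 149 and 183 in Flox hearts labelled sedentary. Flox hearts labelled exercise lay above Flox hearts labelled sedentary, and the KO groups overlapped each other. The log2 fold change of Serpinh1 was 0.69 ± 0.19 for exercise over sedentary labels in Flox (adjusted p = 0.487) and 0.19 ± 0.19 for KO over Flox among hearts labelled sedentary (adjusted p = 0.710). The lysyl oxidase genes Loxl1, Lox and Loxl2 had log2 fold changes of 0.53 ± 0.17, 0.68 ± 0.51 and 0.34 ± 0.26 for KO over Flox among hearts labelled sedentary, and 0.53 ± 0.17, 1.44 ± 0.51 and 0.52 ± 0.26 for exercise over sedentary labels in Flox.

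Basement membrane genes, whose products form the sheet around myocytes and vessels, had no shared direction. Only 2 of 5 were higher in KO than in Flox hearts labelled sedentary by fitted level, none had an unadjusted p under 0.05, and the median was -0.08. Lama2 encodes the laminin chain of the myocyte basement membrane. Lama2 had 86.3, 79.0 and 70.8 CPM in KO hearts labelled exercise, 79.2, 86.3 and 77.5 in KO hearts labelled sedentary, 69.5, 84.3 and 84.8 in Flox hearts labelled exercise, and 88.2, 101 and 93.5 in Flox hearts labelled sedentary. The Flox hearts labelled sedentary lay above the other 9 libraries. The log2 fold change was -0.22 ± 0.11 for KO over Flox among hearts labelled sedentary (adjusted p = 0.410) and -0.25 ± 0.11 for exercise over sedentary labels in Flox (adjusted p = 0.661). Hspg2, the heparan sulphate proteoglycan perlecan, had 642, 477 and 481 CPM in KO hearts labelled exercise, 734, 594 and 385 in KO hearts labelled sedentary, 653, 542 and 540.4 in Flox hearts labelled exercise, and 657, 564 and 591 in Flox hearts labelled sedentary. Its 4 groups overlapped, and the KO hearts labelled sedentary spread the most, from 385 to 734 CPM. Nid1, the linker protein nidogen 1, had 137, 119 and 136 CPM in KO hearts labelled exercise, 147, 149 and 117 CPM in KO hearts labelled sedentary, 122, 147 and 161 CPM in Flox hearts labelled exercise and 119, 129 and 132 CPM in Flox hearts labelled sedentary, with overlap throughout. The laminin chains Lamb1 and Lamc1 had log2 fold changes of -0.10 ± 0.13 and 0.09 ± 0.17.

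The fibroblast genes Tcf21 and Pdgfra and the serpin gene Serpinf1 were all higher in KO than in Flox hearts labelled sedentary by fitted level, with a median of 0.83. Serpinf1 encodes pigment epithelium-derived factor, a secreted anti-angiogenic serpin that binds collagen, and lies at positions 75409769 to 75422701 of chromosome 11. Serpinf1 had 25.9, 22.4 and 24.9 CPM in KO hearts labelled exercise, 30.7, 33.9 and 42.4 in KO hearts labelled sedentary, 21.3, 22.9 and 31.8 in Flox hearts labelled exercise, and 19.0, 20.5 and 17.7 in Flox hearts labelled sedentary. KO hearts labelled sedentary lay above all KO hearts labelled exercise and all Flox hearts labelled sedentary, and overlapped the highest Flox heart labelled exercise, at 31.8 CPM. Serpinf1 rose 1.87-fold in KO over Flox hearts labelled sedentary, a log2 fold change of 0.91 ± 0.16 with an adjusted p of 0.0487. Under the exercise label the log2 fold change was -0.06 ± 0.16 (adjusted p = 0.940).

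The call on Serpinf1 was narrow, while its log2 fold change stayed between 0.75 and 0.99 with each library left out in turn. Its adjusted p was 0.00014 with DESeq2, 0.00119 without the filter on low counts, 0.0287 with the replicate block, 0.0452 with the compared groups fitted alone, 0.0471 with mitochondrial genes left out and 0.0488 with a mean of at least 1 CPM. It was 0.0136 without KO replicate 1 labelled sedentary, 0.0172 and 0.0465 without Flox replicates 3 and 1 labelled exercise, and 0.0400 and 0.0419 without KO replicates 3 and 2 labelled exercise. The call was lost under the other alternatives. The adjusted p in the sedentary comparison was 0.0505 with RLE size factors, and 0.528 with mean atrial marker level as covariate, where the log2 fold change was 0.88 ± 0.21. It was 0.0995 and 0.197 without KO replicates 2 and 3 labelled sedentary, 0.142, 0.175 and 0.159 without Flox replicates 1, 2 and 3 labelled sedentary, 0.0790 without KO replicate 1 labelled exercise and 0.0603 without Flox replicate 2 labelled exercise.

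Tcf21, a transcription factor of epicardium-derived fibroblasts, had 6.70, 5.73 and 8.74 CPM in KO hearts labelled exercise, 10.4, 14.4 and 20.8 in KO hearts labelled sedentary, 8.10, 12.2 and 11.6 in Flox hearts labelled exercise, and 7.56, 8.98 and 9.03 in Flox hearts labelled sedentary. The KO hearts labelled sedentary lay above both KO hearts labelled exercise and Flox hearts labelled sedentary, and the KO hearts labelled exercise lay below the Flox hearts labelled exercise apart from replicate 3, at 8.74 CPM. Its log2 fold change was 0.83 ± 0.24 for KO over Flox among hearts labelled sedentary (adjusted p = 0.174), -0.59 ± 0.25 under the exercise label (adjusted p = 0.619) and -1.11 ± 0.24 for exercise over sedentary labels in KO (adjusted p = 0.176). Pdgfra, the receptor for platelet-derived growth factor on fibroblasts, had 43.8, 40.2 and 62.9 CPM in KO hearts labelled exercise, 42.2, 52.5 and 54.0 in KO hearts labelled sedentary, 37.9, 50.8 and 47.9 in Flox hearts labelled exercise, and 35.7, 43.9 and 39.1 in Flox hearts labelled sedentary. Its groups overlapped, with a log2 fold change of 0.33 ± 0.17 under the sedentary label (adjusted p = 0.426). In whole-heart RNA, fewer cells of a type and less RNA per cell cannot be told apart, for these genes and for the matrix genes above.

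The interaction asks whether exercise over sedentary labels differed between KO and Flox, and it uses all 4 groups. Its sign was negative for 40 of the 45 genes and positive for 5, where 47.9% of all genes were positive, with a median of -0.60 against -0.02 over all genes tested. No gene passed the adjusted threshold, among members or among all genes (background 0.0%), and 18 of the 45 had an unadjusted p under 0.05 in the negative direction (background 5.52%) and none in the positive direction (background 4.37%). The smallest adjusted p was 0.379, shared by Serpinf1 at -0.96 ± 0.22, Fbln5 at -0.63 ± 0.15 and Tcf21 at -1.43 ± 0.34. DESeq2 called Serpinf1 (adjusted p = 0.0380) and Tcf21 (adjusted p = 0.0495), against 0.171% of the genes it tested. By role, the median interaction was -0.96 for the fibroblast and serpin genes, -0.87 for matricellular genes, -0.74 for elastic fibre genes, -0.64 for adhesive genes, -0.57 for collagen processing genes, -0.51 for small leucine-rich proteoglycans and -0.04 for basement membrane genes.

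Libraries of a group differed in their level over all members. The mean log2(CPM + 0.5) over the 45 genes was 5.44, 5.06 and 5.62 in KO hearts labelled exercise, 5.70, 5.58 and 5.60 in KO hearts labelled sedentary, 5.20, 5.55 and 5.42 in Flox hearts labelled exercise, and 5.02, 4.99 and 5.10 in Flox hearts labelled sedentary. All KO hearts labelled sedentary lay above all Flox hearts of either label, with a narrow gap between 5.58 and 5.55, and KO replicate 2 labelled exercise fell within the range of the Flox hearts labelled sedentary. Of the 45 genes, 38, 36 and 30 were above all Flox hearts labelled sedentary in KO replicates 1, 2 and 3 labelled sedentary, where 29.0%, 30.5% and 33.3% of all genes tested were. In KO hearts labelled exercise the counts were 29, 13 and 32, beside 25.1%, 24.9% and 31.2% of all genes. In Flox hearts labelled exercise they were 18, 32 and 31, beside 25.8%, 26.9% and 31.2% of all genes.

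Atrial content differed between the hearts, as read from 19 atrial cardiomyocyte markers such as Nppa, Myl7 and Sln. Their summed level was 5253, 1400.5 and 5138 CPM in KO hearts labelled exercise, 3032, 14852 and 26905 CPM in KO hearts labelled sedentary, 1186, 6873 and 1131 CPM in Flox hearts labelled exercise, and 1138, 1187 and 6336 CPM in Flox hearts labelled sedentary. None was at 0 in all 3 hearts of a group. All 19 were higher in KO than in Flox hearts labelled sedentary by fitted level (median 2.33), and 8 had an unadjusted p under 0.05 (background 8.1%). All 15 ventricular markers were lower (median -0.33), 5 of them at an unadjusted p under 0.05 (background 5.41%). Their summed levels were 62130 to 79082 CPM in KO and 85741 to 91314 CPM in Flox hearts labelled sedentary. With mean atrial marker level as covariate, 12 of the 45 genes had an unadjusted p under 0.05 in the higher direction, against 2.78% of all genes, and the members' median was 0.38. Within each Flox group the library with the most atrial markers had the highest mean over the members. These were replicate 2 labelled exercise, at 5.55, and replicate 3 labelled sedentary, at 5.10. Among KO hearts labelled exercise, replicate 2 had the least atrial markers and the lowest mean, 5.06, but replicate 1 had the most and replicate 3 the highest mean. KO replicate 1 labelled sedentary had 3032 CPM of atrial markers, less than Flox replicate 3 labelled sedentary at 6336 CPM, and had the highest mean over the members of all 12 libraries. Leaving it out raised the number of members past the adjusted threshold in KO over Flox under the sedentary label to 9, against 3.07% of all genes. The part of atrial content in these results beyond these values was not tested. Of 13 mitochondrially encoded genes, 12 were lower in KO than in Flox hearts labelled sedentary by fitted level (median -0.28). In that direction 7 were without overlap (background 7.93%) and 5 had an unadjusted p under 0.05 (background 5.41%). Their sums were 190970 to 217550 CPM in KO and 238190 to 252070 CPM in Flox. With mitochondrial genes left out of the fit, 24 members were higher at an unadjusted p under 0.05 (background 7.55%), with a median of 0.60.

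**Figure D5:**
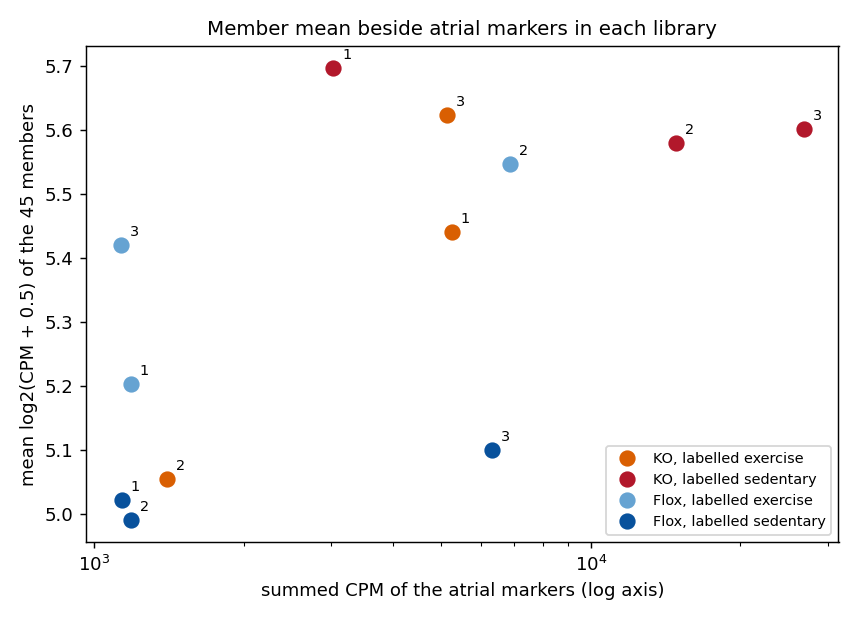
Mean log2(CPM + 0.5) of the 45 genes against the summed CPM of 19 atrial markers (log axis), with a point for each of the 12 libraries. The KO hearts labelled sedentary are high on the vertical axis from 3032 to 26905 CPM of atrial markers, and the Flox hearts labelled sedentary are low from 1138 to 6336 CPM. Within each Flox group the library with the most atrial markers has the highest mean, and in KO labelled sedentary the library with the least does.

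Markers of other cell types moved with the same comparison, in which 50.0% of all genes tested were higher. Between KO and Flox hearts labelled sedentary, endocardial markers were higher in 6 of 6 cases by fitted level (median 1.52), valve and chondrogenic markers in 7 of 7 tested of 9 listed (median 1.28), mesothelial markers in 11 of 11 (median 1.47), Schwann and nerve markers in 7 of 7 tested of 10 (median 0.85) and macrophage markers in 12 of 12 (median 0.49). Summed levels in KO and in Flox hearts labelled sedentary were 182.5 to 468 CPM and 97.8 to 177 CPM for endocardium, 35.2 to 47.4 and 19.1 to 23.1 CPM for valve, 20.1 to 83.1 and 14.5 to 42.5 CPM for mesothelium, 34.3 to 50.7 and 25.4 to 29.6 CPM for nerve and 331 to 524 and 283 to 334 CPM for macrophages. The cartilage collagen Col2a1 was at 0 in all 3 KO hearts labelled sedentary, and Th and Npy were at 0 in all 3 Flox hearts labelled sedentary. Adipocyte markers split, with 8 of 14 tested higher and a median of 1.01. Past the adjusted threshold were 5, among them Cidec, Adipoq and Cebpa, where 0.125% of all genes tested were called. Their mean log2(CPM + 0.5) was 4.62, 4.56 and 4.89 in KO hearts labelled sedentary and 3.55, 3.32 and 3.16 in Flox hearts labelled sedentary, without overlap. Their sums were 4289 to 5071 CPM in KO and 5951.5 to 6435 CPM in Flox hearts labelled sedentary, and the list includes Fabp4 and Lpl, which other heart cells also express. Smooth muscle markers were higher in 7 of 11 cases (median 1.15), with Myl9 past the adjusted threshold, at sums of 2126 to 3252 CPM in KO and 2470.1 to 2653 CPM in Flox hearts labelled sedentary. Endothelial markers were higher in 5 of 12 cases, at sums of 1442 to 1609 and 1324 to 1610.4 CPM. The part of these cell types in the results for the matrix genes was not tested.

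Other matrix genes were counted from lists that hold no member apart from Ltbp2, and a few genes such as Col1a1 and Smad7 stand on more than 1 list. Of 17 collagen genes, 14 were higher in KO than in Flox hearts labelled sedentary by fitted level, 4 at an unadjusted p under 0.05 and none past the adjusted threshold, with a median of 0.39. The background in that comparison, here and for the lists below, was 50.0% higher and 8.1% higher at an unadjusted p under 0.05. All list genes counted at that p were in the higher direction. Col18a1 had 0.95 ± 0.24 and Col5a2 0.83 ± 0.24 on the log2 scale. In Flox, 16 of the 17 collagen genes were higher in the exercise label (median 0.49), where 51.4% of all genes were. The interaction was negative for all 17 (median -0.54), where 47.9% of all genes were positive. Of 20 genes of the TGF-beta pathway, which drives matrix production, 17 were higher in KO over Flox under the sedentary label and 8 had an unadjusted p under 0.05, with a median of 0.25. Ltbp3, a latent TGF-beta binding protein, had 0.41 ± 0.10, the ligand gene Tgfb3 0.50 ± 0.14 and the inhibitor Smad7 0.46 ± 0.14. Of 12 TGF-beta target genes, a list that includes Ltbp2, 11 were higher and 7 had an unadjusted p under 0.05, with a median of 0.98.

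Of 17 matrix proteases and their inhibitors, 13 were higher in KO than in Flox hearts labelled sedentary (median 0.39), 6 at an unadjusted p under 0.05. The same background of 50.0% and 8.1% applies to the lists given here. The inhibitor Timp2 had 0.63 ± 0.16 and the gelatinase Mmp2 0.57 ± 0.18. Of 13 matrix receptors, 9 were higher and 5 had an unadjusted p under 0.05 (median 0.24), led by the collagen receptor Ddr1 at 0.61 ± 0.12 (adjusted p = 0.0787) and the syndecan Sdc1 at 0.73 ± 0.18. Of 16 other fibroblast markers, 12 were higher and 3 had an unadjusted p under 0.05 (median 0.25). Vim, the intermediate filament vimentin, had 0.87 ± 0.20 (adjusted p = 0.0994) and Gsn, the actin-severing protein gelsolin, 0.56 ± 0.18. No gene of these 6 lists passed the adjusted threshold in that comparison. Under the exercise label the medians of the 6 lists for KO over Flox were -0.14, -0.04, 0.06, 0.03, 0.05 and -0.18 in the order given.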

How the data were processed

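The authors deposited estimated counts per gene symbol for all 12 libraries, not scaled between libraries. FastQC, Salmon, which estimates transcript counts, and the builds mm9 and mm10 are named in the submitters' processing notes without a version or role. RNA was taken with Trizol from frozen whole hearts and libraries followed ribosomal RNA depletion, per the labels' protocols. Not given in the sources used here: annotation, strand setting and transcript-to-gene step. Of 55874 entries, 1696 named vectors or adaptors, and these, 3.87e-05% to 0.186% of the counts per library, stayed out. Library totals were 17465432 to 20467300 counts.

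Estimated counts were rounded to whole numbers and tested in R 4.3.3 with edgeR 4.0.16, after filterByExpr by group (15226 genes left) and TMM, through a model of 4 group means over 12 libraries, robust glmQLFit, glmQLFTest and Benjamini-Hochberg adjustment at 0.05 over all genes tested. Standard errors are the log2 fold change over the root of F. Levels in CPM use library sizes after TMM and are given as mean ± SD of 3 libraries, and list means use log2(CPM + 0.5). Gene positions and exon lengths came from GENCODE vM21 (GRCm38), matched by symbol. The test was checked on simulated data.

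Alternatives were RLE size factors, DESeq2 1.42.0, no filter, a mean of at least 1 CPM, a replicate block, the atrial marker mean as a covariate, mitochondrial genes left out, a fit of the compared groups alone, and leaving out each library. The members and lists were chosen with earlier results of these data known, so no list was tested as a set. Members given in full were, in each of 7 roles, the pair with the smallest p over the 4 comparisons of groups, the highest mean level, and the gene farthest against the role's median, plus any member past the adjusted threshold (21 genes). Other members given with values, among them Mfap4, Comp, Tnc, Ltbp1 and Eln, were chosen after their values were seen.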

Additional observations from a re-analysis of the deposited data

Results flagged for a closer look

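Serpinf1 was singled out because its libraries moved in opposite directions with the exercise label in the 2 genotypes. It had 25.9, 22.4 and 24.9 CPM in KO hearts labelled exercise, all below the 30.7, 33.9 and 42.4 CPM of KO hearts labelled sedentary, and 21.3, 22.9 and 31.8 CPM in Flox hearts labelled exercise, all above the 19.0, 20.5 and 17.7 CPM of Flox hearts labelled sedentary. The difference between the log2 fold changes, KO minus Flox, was -0.960777 (-0.96 ± 0.22, SE), with an adjusted p of 0.379 in edgeR's quasi-likelihood test and 0.0380 in DESeq2. Libraries without overlap in the lower direction for the exercise label in KO were seen for 7.31% of all genes tested. In Flox, 7.5% of all genes tested had them in the higher direction. The share of all genes with both was not counted, so the pattern of Serpinf1 is given as description only. Groups of 3 libraries are too small for a check of single libraries that stand apart.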

How the results depend on the processing

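Serpinf1, the 1 member called, kept its sign for KO over Flox among hearts labelled sedentary under every alternative run. Under the exercise label its log2 fold change ran from -0.16 to 0.14 with each library left out in turn. For KO over Flox among hearts labelled sedentary, the members past the adjusted threshold numbered 1, against 0 with RLE size factors, 13 with DESeq2, 7 without the filter on low counts, 3 when the compared groups were fitted alone and 0 with mean atrial marker level as covariate. Of all genes, 0.125% were called, against 0.105%, 1.35%, 0.436%, 0.265% and 0.0197% under those alternatives in that order. The shares with DESeq2 and without the filter are over 27509 and 27531 genes, which include genes at low counts. That covariate also brought the members higher at an unadjusted p under 0.05 to 12 and their median log2 fold change to 0.375. For exercise over sedentary labels, DESeq2 called 2 members in KO and 2 in Flox, where edgeR called 0, and the 1 member lower in Flox at an unadjusted p under 0.05 became 0 without the filter and with the compared groups alone. Averaged over labels, the 0 called members of KO over Flox became 3 with DESeq2 (0.574% of all genes) and 1 without the filter (0.178%), and for the interaction 0 became 2 with DESeq2. The cause of these changes was not tested.

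The labels do not say what a shared replicate number means. Over 18 pairs with the same number, deviations from group means correlated at -0.32 to 0.31, and 6 pairs were above 0.1. Pairs with different numbers ran from -0.39 to 0.28. With groups of 3, such a check cannot exclude pairing. With the replicate number as a block, 3 members were called for KO over Flox among hearts labelled sedentary (Serpinf1, Mfap4 and Pcolce, against 0.243% of all genes), 1 for exercise over sedentary labels in KO (Mfap4, against 0.0263%) and 2 for KO over Flox averaged over labels (Mfap4 and Pcolce2, against 0.125%).

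Leaving out each of the 12 libraries in turn gave these ranges. For KO over Flox among hearts labelled sedentary, 0 to 9 members were called and the median was 0.56 to 0.65. At an unadjusted p under 0.05, 20 to 27 were higher, where 4.71% to 10.4% of all genes were. In the lower direction there were 0 to 1, where 523 to 1726 of all genes were. The count was 9 without KO sedentary replicate 1 (3.07% of all genes called), 3 without KO exercise replicate 3 (0.276%), 2 without KO exercise replicate 2 (0.225%), and 0 without each Flox sedentary replicate, KO sedentary replicates 2 and 3, KO exercise replicate 1 or Flox exercise replicate 2. Under the exercise label, 0 to 4 members of KO over Flox were higher, where 2.47% to 4.84% of all genes were. In the lower direction there were 0 to 4, where 361 to 709 of all genes were. For exercise over sedentary labels in KO, 0 to 3 were called (3 without KO sedentary replicate 1, where 3.63% of all genes were called). At an unadjusted p under 0.05, 0 to 2 were higher, where 293 to 1825 of all genes were. In the lower direction there were 6 to 14, where 566 to 1475 of all genes were. There were 14 without KO exercise replicate 3, where 1027 of all genes were lower. The members' median was -0.33 to -0.062 (-0.062 without KO exercise replicate 2). In Flox, 6 to 17 were higher, where 2.13% to 5.03% of all genes were. There were 6 without Flox sedentary replicate 2 (2.13%), 8 without Flox sedentary replicate 3 (2.69%) and 8 without Flox exercise replicate 3 (2.91%). In the lower direction there were 0 to 2, where 317 to 787 of all genes were. Averaged over labels, KO over Flox had 0 to 2 called, with 2 without KO exercise replicate 2 (Pcolce2 and Vcan, against 0.218% of all genes). In the higher direction at an unadjusted p under 0.05 there were 9 to 24, where 4.37% to 7.51% of all genes were. Where a library was left out, its group kept 2.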
